A study of Mus musculus with 6 samples.

Results

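The MHC class II genes of the mouse were followed in sorted bone marrow cells of young and old C57BL/6 mice. They were taken as 10 named genes, H2-Aa, H2-Ab1, H2-Eb1, Cd74, Ciita, H2-DMa, H2-DMb1, H2-DMb2, H2-Oa and H2-Ob, through every non-control probe whose accession was a RefSeq transcript of one of them. This gave 12 probes among the 55681 on the array, and 10 genes of the 37163 gene names. The labels call the cells mesenchymal stem cells of the bone marrow and give no further treatment or allele. Total RNA of 3 samples from mice aged 3 months (young) and of 3 samples from mice aged 24 months (old) was hybridised to 6 arrays of 1 colour. Neither the sort markers nor any pooling of animals is stated, and whether each sample was a different mouse is not said. The p-values therefore describe how far these samples spread, which may include technical spread.

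MHC class II molecules are pairs of an alpha and a beta chain that carry peptides from endosomes to the surface of B cells, dendritic cells and macrophages, where CD4 T cells read them. Cd74 encodes the invariant chain, which fills the groove of a new pair and guides it to endosomes. H2-DM exchanges the remnant of the invariant chain for a peptide, and H2-O, found mainly in B cells, restrains H2-DM. Ciita encodes the coactivator that switches these genes on through factors bound to the X and Y boxes of their promoters. C57BL/6 mice lack a functional E alpha chain, so the product of H2-Eb1 does not form an E pair on their cells.

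The promoter stretch that carries these boxes is shown because it is the stretch through which Ciita acts, and 5 members held both sets of letters searched for. A promoter (250 bases before to 50 after the start, RefSeq, build GRCm38.p6) was on hand for 7 of the 10 members, with 8 windows since H2-DMa had 2. H2-Ab1, Cd74 and Ciita had no entry. The capitals mark TGATTGG, which holds the inverted CCAAT letters of the Y box, and upstream of it GNAAC, letters within the X box, where the first bases of both lay 25 to 40 bases apart. These letters and distances were chosen after reading the promoters. The windows run 5′ to 3′ along the gene and lie at chr17:34287857-34287923 (minus strand) for H2-Aa, and on the plus strand at chr17:34305756-34305822 for H2-Eb1, chr17:34153078-34153144 for H2-DMb1, chr17:34145107-34145173 for H2-DMb2, chr17:34092284-34092350 for H2-Oa and chr17:34238796-34238862 for H2-Ob.
H2-Aa: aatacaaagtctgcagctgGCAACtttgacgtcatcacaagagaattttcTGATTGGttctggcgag
H2-Eb1: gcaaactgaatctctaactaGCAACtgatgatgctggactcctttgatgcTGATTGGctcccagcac
H2-DMb1: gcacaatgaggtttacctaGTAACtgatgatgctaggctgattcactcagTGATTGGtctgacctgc
H2-DMb2: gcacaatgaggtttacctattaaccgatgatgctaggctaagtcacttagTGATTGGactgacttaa
H2-Oa: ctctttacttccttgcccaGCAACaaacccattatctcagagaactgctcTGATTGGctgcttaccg
H2-Ob: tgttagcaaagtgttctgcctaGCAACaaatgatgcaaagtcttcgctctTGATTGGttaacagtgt

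TGATTGG was found in 6 of the 8 windows of the members and in 7.82% of all 32851 promoter windows of 300 bases, both strands searched. GNAAC followed by TGATTGG at the stated distance was found in 5 of the 8, against 0.43% of all windows. In these 5 the first bases lay 28 to 31 bases apart. As the letters and distances were chosen after reading the promoters, these shares are a description and not a test. Neither H2-DMa window held TGATTGG, which says only that these letters are not in those windows. The H2-DMb2 window held TGATTGG without GNAAC. It was the same as the H2-DMb1 window at 58 of 67 positions, and the members are neighbouring copies of a beta chain gene. The sequences of the array's probes are not used here, so how far a probe of one H2-DMb gene also reads the other was not tested. The H2-Eb1 promoter is given whole, at chr17:34305617-34305916 on the plus strand, with the same letters in capitals, as the longest context of a gene with a large difference.
H2-Eb1 promoter: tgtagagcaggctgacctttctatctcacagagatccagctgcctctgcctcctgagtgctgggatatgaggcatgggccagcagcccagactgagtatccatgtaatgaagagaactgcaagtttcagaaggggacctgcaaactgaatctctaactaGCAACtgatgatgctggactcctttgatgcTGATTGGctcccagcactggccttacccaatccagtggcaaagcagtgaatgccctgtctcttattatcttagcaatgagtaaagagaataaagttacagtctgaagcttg

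Every signal below is the log2 of the processed intensity minus the log2 of the 75th percentile of its own array, so 0 is the brightness of that percentile, and levels are not compared between genes. The old arrays were dimmer, with 75th percentiles of 229 to 319 against 315 to 393 in the young arrays, and 50.9% to 53.4% of probes were well above background against 55.3% to 60%. The young arrays shared a row of the slide and the old arrays its other row, and thus slide row and age cannot be told apart. Markers went partly against the label of the cells: of 12 genes of mesenchymal stroma, 4 (Pdgfra, Pdgfrb, Foxc1 and Prrx1) did not exceed background clearly on any of the arrays and 5 did on all of them, whereas all 8 leukocyte genes, all 10 neutrophil genes and all 6 erythroid genes on the array were so on all 6 arrays. In such bulk RNA fewer cells of a type and less RNA per cell cannot be told apart. Among all genes 1953 of 23266 tested genes passed limma's test at an adjusted p under 0.05, 1020 higher and 933 lower in old samples. That split was 2323 and 1043 with normexp background correction, 649 and 898 with cyclic loess and 597 and 934 with the deposited values. The count at the adjusted threshold fell when single arrays were left out. It was 831, 72 and 305 genes without young replicates 1, 2 and 3, and 1262, 1 and 0 without old replicates 1, 2 and 3. At an unadjusted p under 0.05 limma gave 6731 genes with all arrays and 5128 to 6517 with an array left out. How much of the drop came from the smaller number of arrays was not tested.

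Of the 10 members, all of which could be tested, 3 fell (H2-Aa, H2-Oa and H2-Ob) and none rose at a limma adjusted p under 0.05, where 4.01% of all tested genes were called lower and 8.39% in either direction. At an unadjusted p under 0.05, 7 members were lower, against 10.3% of tested genes. Another 3, H2-Eb1, Cd74 and H2-DMb1, had adjusted p-values between 0.0558 and 0.0674. All 10 log2 differences were negative, as were 37.4% of those of all tested genes, and the members' median was -1.20 against 0.08 for all tested genes. With normexp, whose offset shrinks differences between dim signals, the members' median was -0.64. H2-Aa was then at -1.30, H2-Oa at -0.75 and H2-Ob at -0.56. The dim Ciita and H2-DMb2 turned sign with normexp, at 0.13 and 0.062, and why they did was not tested. In 8 members every old value lay below every young value, a pattern seen in 12.2% of tested genes (37.1% separated in either direction); H2-DMa and H2-DMb2 were the exceptions.

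**Figure D1:**
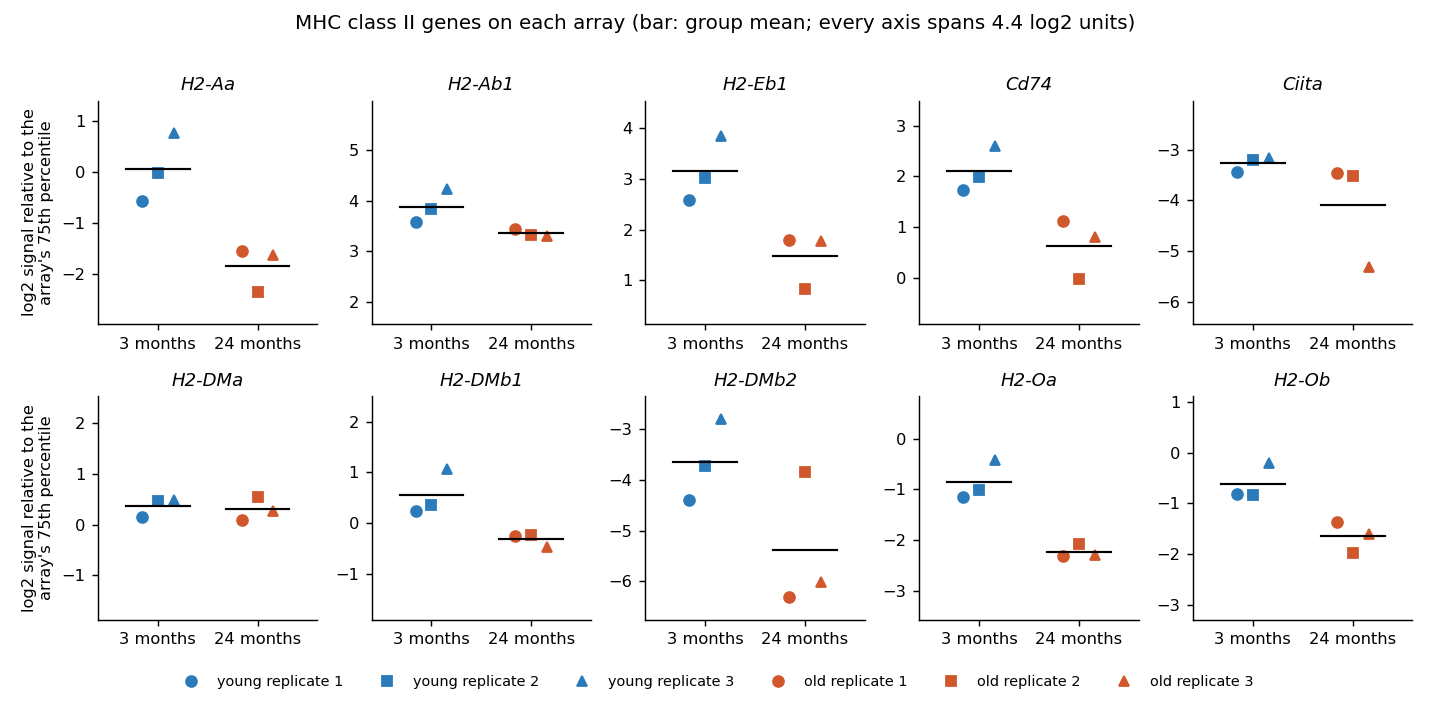
Signal of each MHC class II gene on every array, in log2 units relative to the array's 75th percentile, with blue for mice of 3 months, orange for mice of 24 months, symbols for the replicate number and a bar for the group mean (n = 3 each). Young replicate 3 is the highest young array in all 10 panels, and the groups overlap in the panels of H2-DMa and H2-DMb2.

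Among the classical chains, H2-Aa (NM_010378), the alpha chain of the A pair, read -0.58, -0.02 and 0.77 on young arrays 1 to 3 and -1.56, -2.36 and -1.63 on old arrays 1 to 3. Every old value was below every young value, with a gap of 0.98 between the nearest. H2-Aa fell by 1.91 ± 0.38 on the log2 scale (estimate ± SE here and below, limma adjusted p = 0.0387, n = 3 and 3), which is 3.75-fold, and 1.32% of tested genes had a difference at least as low. Its partner H2-Ab1 (NM_207105), the beta chain of the A pair, did not pass. H2-Ab1 read 3.57, 3.82 and 4.22 in young samples and 3.44, 3.33 and 3.31 in old samples. The groups did not overlap, but young replicate 1 and old replicate 1 were only 0.13 apart. The difference of H2-Ab1 was -0.51 ± 0.17 (limma adjusted p = 0.116), and its further probe gave -0.50 ± 0.18. H2-Eb1 (NM_010382), the beta chain of the E pair, read 2.59, 3.02 and 3.84 in young samples and 1.80, 0.83 and 1.78 in old samples. The old arrays were all lower, and old replicate 2 lowest. The difference of H2-Eb1 was -1.68 ± 0.40, a 3.2-fold lower mean, and did not pass (limma adjusted p = 0.0558, 95% interval -2.65 to -0.71).

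The invariant chain gene Cd74 (NM_001042605) lies on another chromosome than the H2 genes. Cd74 read 1.72, 1.99 and 2.60 on young arrays 1 to 3 and 1.12, -0.02 and 0.81 on old arrays 1 to 3. The groups did not overlap, with young replicate 3 highest and old replicate 2 lowest, as for H2-Aa and H2-Eb1. The difference of Cd74 was -1.46 ± 0.35, or 2.76-fold, with a limma adjusted p of 0.0569.

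Ciita (NM_007575), the coactivator, was dim. Ciita read -3.44, -3.20 and -3.16 in young samples and -3.47, -3.51 and -5.31 in old samples, and was not well above background on old replicate 3. Old replicates 1 and 2 of Ciita lay just below the young range and old replicate 3 far below it. The difference was -0.82 ± 0.50 (limma adjusted p = 0.326, 95% interval -2.04 to 0.39), and -0.22 without old replicate 3.

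Of the peptide exchange genes, H2-DMa (NM_010386), the alpha chain of H2-DM, read 0.16, 0.46 and 0.48 in young samples and 0.10, 0.55 and 0.27 in old samples, with the old values spread through the young range. The difference of H2-DMa was -0.06 ± 0.15 (limma adjusted p = 0.821), and its 95% interval of -0.43 to 0.31 leaves out differences as large as those of H2-Aa or H2-Oa. H2-DMb1 (NM_010387), a beta chain of H2-DM, read 0.24, 0.35 and 1.06 in young samples and -0.26, -0.23 and -0.46 in old samples. All old values of H2-DMb1 were below the young ones, at -0.87 ± 0.23 (limma adjusted p = 0.0674). The second beta chain gene, H2-DMb2 (NM_010388), was dim, at -4.40, -3.73 and -2.80 in young samples and -6.31, -3.84 and -6.00 in old samples, where 1 of 3 arrays was well above background. Old replicate 2 lay inside the young range of H2-DMb2, and the difference of -1.74 ± 0.73 did not pass (limma adjusted p = 0.179).

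A further class II beta chain gene outside the 10, H2-Eb2, was at -0.58 ± 0.21 and did not pass (limma adjusted p = 0.135). Both chains of H2-O, the restrainer of H2-DM, fell. H2-Oa (NM_008206) read -1.14, -1.02 and -0.42 on young arrays 1 to 3 and -2.32, -2.07 and -2.30 on old arrays 1 to 3. The old values of H2-Oa lay close together and 0.93 below the lowest young value. H2-Oa fell by 1.37 ± 0.20 (2.58-fold, limma adjusted p = 0.0255). H2-Ob (NM_010389) read -0.81, -0.83 and -0.21 in young samples and -1.36, -1.98 and -1.60 in old samples through its brighter probe. That probe fell by 1.03 ± 0.23 (limma adjusted p = 0.049), close to the threshold. The further probe of H2-Ob read -0.32, -0.45 and 0.12 in young samples and -2.13, -3.04 and -2.39 in old samples. When every probe was tested on its own, the further probe of H2-Ob fell by 2.30 ± 0.27 (limma adjusted p = 0.0231), so its probes moved the same way by unequal amounts, and both groups were apart on each.

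**Figure D2:**
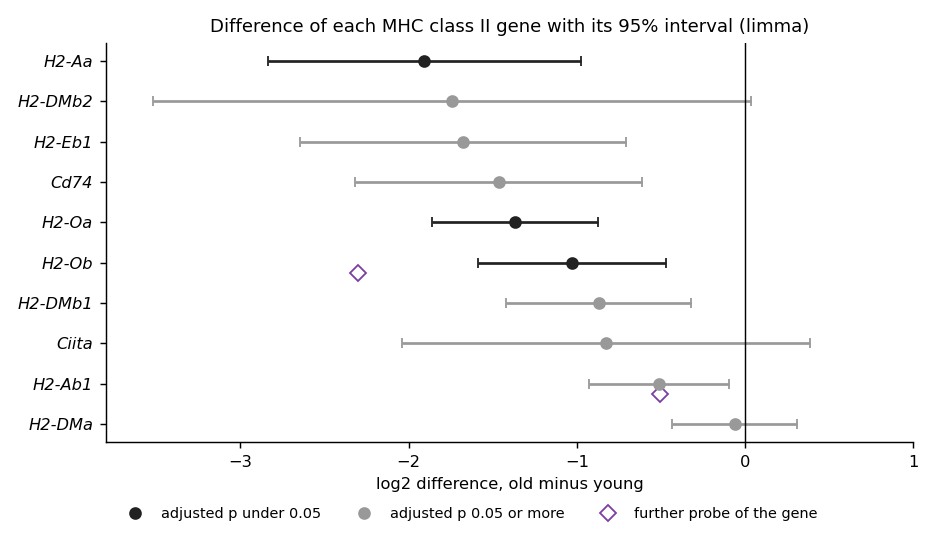
Log2 difference of each MHC class II gene, old minus young, with points for the limma estimate (black where the adjusted p is under 0.05), bars for its 95% interval (3 arrays against 3) and open diamonds for a further probe of the same gene. The intervals of H2-DMa, Ciita and H2-DMb2 cross 0, and the further probe of H2-Ob, at -2.30, lies far from the probe that stood for the gene, at -1.03.

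No member kept its call without each array in turn. H2-Aa and H2-Oa passed without young replicate 1, and H2-Oa also without young replicate 3 or old replicate 1. No member passed once old replicate 2, old replicate 3 or young replicate 2 was left out (limma, 7, 6 and 6 members at an unadjusted p under 0.05). H2-Ob, through the probe that stood for the gene, passed in none of the 6 fits. The further probe of H2-Ob was not put through these fits. Young replicate 3 was the highest young array in all 10 members. Without it the differences were -1.55 for H2-Aa, -1.33 for H2-Eb1, -1.22 for Cd74, -1.15 for H2-Oa and -0.82 for H2-Ob, and all 10 remained negative. With a spread estimated by the trend and robust settings 6 members fell, and with normexp 7, adding H2-Ab1, H2-Eb1, Cd74 and H2-DMb1 to the 3. These settings also called more of all 23266 tested genes lower, 1344 and 1043 against 933 in the main setting.

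Since the scaling of an array cancels in a ratio of genes on that array, ratios were used to compare members. These 6 pairs were chosen after the values had been seen, and 3 arrays against 3 cannot give an exact permutation p below 0.1. H2-Aa relative to H2-Ab1, its partner chain, was lower in old samples by 1.39 log2 units, H2-Eb1 relative to H2-Ab1 by 1.17 and Cd74 relative to H2-Ab1 by 0.95 (changes of -1.39, -1.17 and -0.95). H2-Oa relative to H2-DMa changed by -1.30 and H2-DMb1 relative to H2-DMa by -0.81. In contrast, H2-Aa relative to H2-Eb1 moved by -0.23, and its lowest young array, at 0.04 from the mean ratio, lay next to its highest old array at 0.01. All 6 ratios separated the groups, each at the smallest exact permutation p of 0.1 (two-sided, also 0.1 after Benjamini-Hochberg adjustment over the 6), so none can be called. Background does not cancel in a ratio, and the ratios were taken from the main values only. With normexp the genes' own differences were -1.30 for H2-Aa, -0.54 for H2-Ab1, -1.61 for H2-Eb1 and -1.38 for Cd74. They were -0.75 for H2-Oa, -0.72 for H2-DMb1 and -0.06 for H2-DMa. The difference of H2-Eb1 was thus larger than that of H2-Aa with normexp, whereas it was smaller in the main values.

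**Figure D3:**
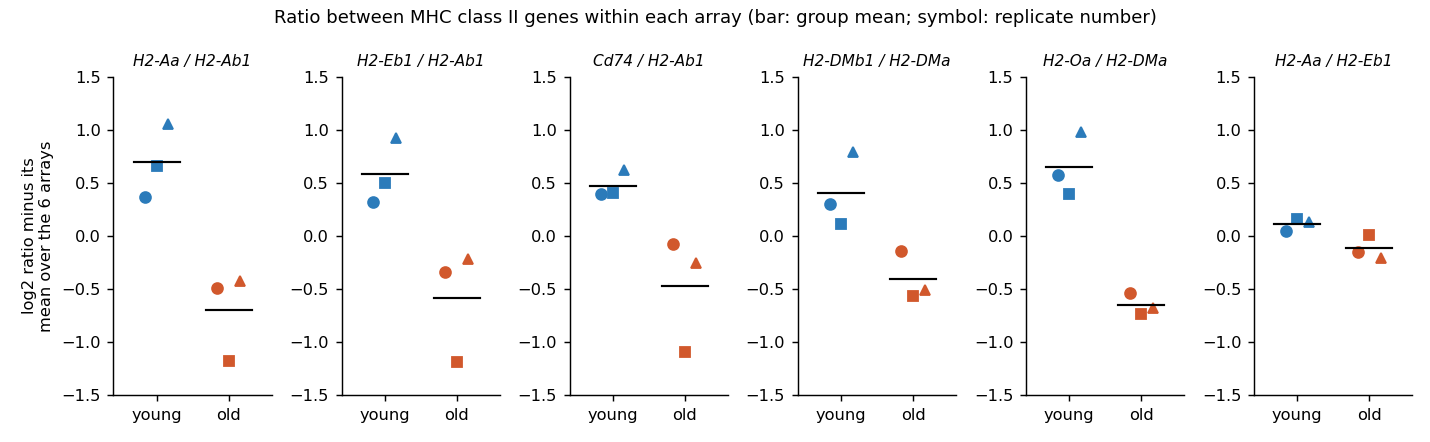
Ratio between pairs of MHC class II genes on each array, as log2 minus the mean of that ratio over the 6 arrays, with symbols for the replicate number and a bar for the group mean. The ratios to H2-Ab1 and to H2-DMa are lower in old samples, though none can be called, whereas the ratio of H2-Aa to H2-Eb1 stays within 0.21 of its mean on every array.

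Averaged over the 10 members, the deviation from each gene's own mean was 0.19, 0.49 and 1.04 on the young arrays in the order of their replicate numbers, and -0.48, -0.53 and -0.71 on the old arrays (log2). The average includes the dim Ciita, at -5.31 on old replicate 3, and H2-DMb2, at -6.31 and -6.00 on old replicates 1 and 3. The order of the old arrays and the distances below thus rest partly on signals near background. Old replicate 2 was the lowest old array in 4 members, and old replicates 1 and 3 in 3 each. H2-DMb1 and H2-Oa were the members nearest to this mean profile, at a Euclidean distance over the 6 arrays of 0.37, and H2-DMb2 the farthest at 2.08. The 8 other named genes with the smallest distance, 0.15 to 0.26, were Cotl1, Ccdc125, Mfsd6, Prkcd, Slc6a12, Tbc1d2, Ptpn22 and Ccdc88b. Cotl1 encodes an actin-binding protein, Prkcd the delta form of protein kinase C and Ptpn22 a phosphatase of lymphocytes. The mean of Cotl1 was 4.90 in young and 3.70 in old samples, a difference of -1.20. As these genes were picked for this pattern, their differences of -0.95 to -1.21 are a description.

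Of 13 tested transcription factors of MHC class II genes, Irf8 fell, none rose and 12 did not pass, with a median of -0.09. Beside this list and those below, 4.01% of all tested genes were called lower. Irf8, a factor of dendritic cell and monocyte development, fell by 2.35 ± 0.30 (limma adjusted p = 0.0219). The B cell and dendritic cell factor Irf4 was at -2.44 ± 0.59 (limma adjusted p = 0.0582), and Spi1, which encodes the myeloid factor PU.1, at -1.99 ± 0.57 (limma adjusted p = 0.0833). With normexp Irf4 was at -0.99 and fell (limma adjusted p = 0.0059), and Spi1 was at -0.20 and did not pass. Among the genes of proteins that bind the X and Y boxes, Rfxank was at -0.05 ± 0.14, Rfxap at 0.17 ± 0.14, Nfya at -0.01 ± 0.19, Nfyb at -0.30 ± 0.10 and Nfyc at -0.09 ± 0.08, and none of these passed. Rfx5 was well above background on 1 array and was not tested. Of 10 genes of interferon gamma signalling, the route that induces Ciita in many cells, the receptor chain gene Ifngr2 fell by 0.43 ± 0.09 (limma adjusted p = 0.0415), and the other 9 did not pass, with a list median of -0.29. The other receptor chain gene, Ifngr1, was at 0.43 ± 0.17 (limma adjusted p = 0.158). Ifng itself was not well above background on any old array and was at least 1.63-fold lower, which did not pass (limma adjusted p = 0.0521), and with normexp its difference was -0.0004.

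Genes that prepare peptides for MHC class II fell in 2 of 10 members. Ctss, the cathepsin that trims the invariant chain in B cells and dendritic cells, read 1.52 to 2.78 in young samples and -0.84 to 0.23 in old samples. Ctss fell by 2.52 ± 0.42 (limma adjusted p = 0.029). Lgmn, an asparagine-specific endosomal protease, read -0.69 to 0.47 in young samples and -2.28 to -1.69 in old samples, and fell too (SE of the difference 0.32, limma adjusted p = 0.0273). The other 8 did not pass, among them Ctsl at 0.14, the thiol reductase gene Ifi30 at -0.05 and Sppl2a, the protease that clears the stub of the invariant chain, at -0.02, and the median of the list was -0.10.

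Costimulatory genes fell in 3 of 6 tested members, but 2 of these, Cd40 and Cd86, entered the test only through the young arrays. The list median of -1.81 includes such values below background and was -0.28 with normexp. Icosl, the ligand of ICOS, fell by 1.85 ± 0.31 (limma adjusted p = 0.0286). Cd40 was at least 2.52-fold lower and Cd86 at least 1.17-fold lower (limma adjusted p = 0.0255 and 0.0352). These bounds set the young mean against the lowest signal well above background, since no old array measured either gene, and with normexp Cd40 was -0.24 and Cd86 -0.04 and neither passed. Cd80 was at -0.36 ± 0.09 (limma adjusted p = 0.0562).

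Of 14 tested MHC class I genes 2 had negative differences, against 37.4% of all tested genes, and the list median was 0.12. That median followed the scaling, at 0.012 in the deposited values and -0.0015 after cyclic loess. Erap1, a peptide trimmer, rose by 0.89 ± 0.16 (limma adjusted p = 0.0313), where 4.38% of all tested genes were called higher, and none of the 14 fell. The gene with the next smallest p, the immunoproteasome subunit gene Psmb10, was at 0.34 ± 0.10 (limma adjusted p = 0.101). The class I heavy chain gene H2-K1 was at 0.08 ± 0.13 and the light chain gene B2m at 0.13 ± 0.14. Along chromosome 17 the genes Psmb9, Tap1, Psmb8 and Tap2 lie between H2-DMb1 and H2-Ob, and Brd2 between H2-Oa and H2-DMa. These 5 genes and Btnl2 gave differences of -0.03 to 0.32 and none passed. No test of the difference between these lists and the class II genes was made.

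**Figure D4:**
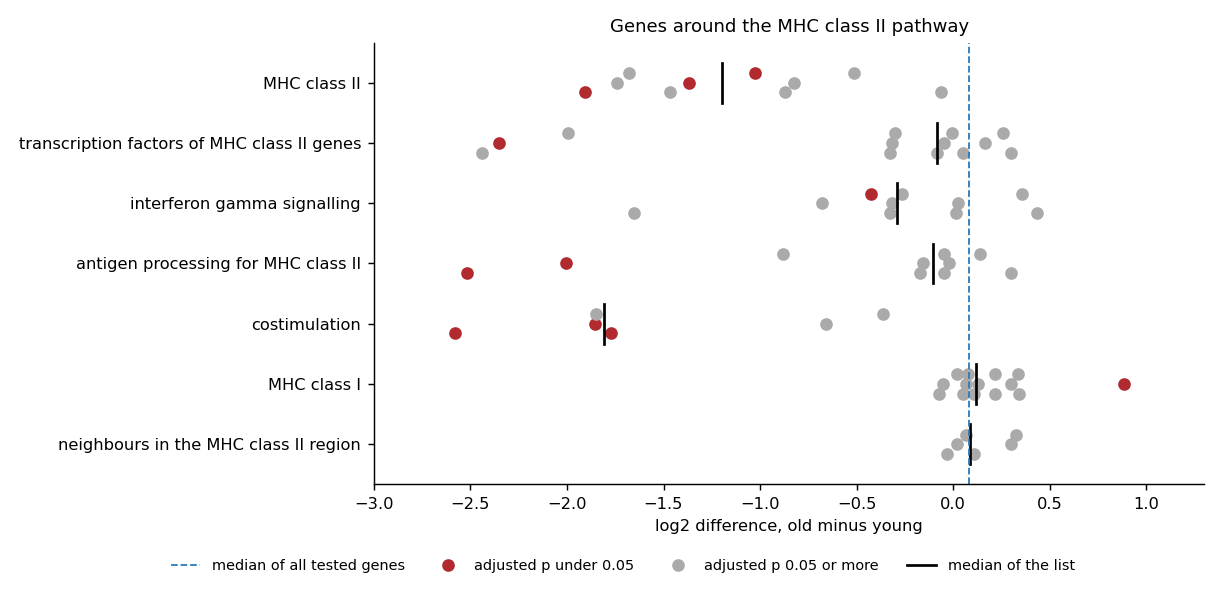
Log2 difference, old minus young, of every tested gene in 7 lists around the MHC class II pathway, with a black bar for the median of a list, red points for a limma adjusted p under 0.05 and a dashed line at the median of all tested genes, 0.08. The class II and costimulation lists lie mostly left of the dashed line, with medians of -1.20 and -1.81 (-0.64 and -0.28 with normexp), and the class I genes and the region's other genes lie around it.

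Markers were listed for the cells that carry MHC class II. Beside the counts that follow, 4.01% of all tested genes were called lower and 4.38% higher. In the B cell list 7 of 13 tested genes fell and none rose, with 11 of 14 well above background on all 6 arrays and a summed signal of 37.4 to 54.8 (in units of the array's 75th percentile) in young and 10.2 to 15.6 in old samples. The lineage factor gene Ebf1 was at -3.13 ± 0.30 and the adaptor gene Blnk at -1.73 ± 0.22 (limma adjusted p = 0.0176 and 0.0219). Ebf1 was well above background on 1 of 3 old arrays and was at -1.37 with normexp. Ms4a1, which encodes CD20, was at -1.98 ± 0.51 and Cd79a, a chain of the B cell receptor complex, at -0.25 ± 0.15, and neither passed. Of dendritic cell genes 6 of 11 fell, among them Flt3 at -1.73 ± 0.17 (-0.67 with normexp). Clec9a and Cd209a, also among the 6, entered the test only through the young arrays, and with normexp 3 of 11 fell, with a median of -0.32. Zbtb46 and Batf3, factors of classical dendritic cells, were each at -0.11 and did not pass, and Xcr1 was on no array clearly brighter than background. The summed signal of that list, 276 to 333 in young and 276 to 322 in old samples, was mostly Siglech, a gene of plasmacytoid dendritic cells, which read 8.01 to 8.32 and 8.05 to 8.27 and differed by 0.06 ± 0.12. Of monocyte and macrophage genes 7 of 10 fell, including Mpeg1 at -2.34 ± 0.28 and Mrc1, which entered the test only through the young arrays (6 of 10 with normexp, Mrc1 not among them). Csf1r, the receptor of the macrophage growth factor, was at -0.39 ± 0.21 and did not pass. Of that list the markers were well above background on all 6 arrays in 8 of 11, with summed signals of 13.9 to 25 in young and 7.66 to 8.70 in old samples.

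Of the 8 leukocyte genes 6 fell, with a median of -1.55 and summed signals of 54.7 to 108 in young and 23.2 to 31.4 in old samples. Neutrophils carry little MHC class II, and 4 of 10 neutrophil genes fell (10 of 10 with normexp). In all 10 every old value lay below every young value, a pattern seen in 12.2% of all tested genes. Their median was -1.26, with summed signals of 1578 to 2417 in young and 1019 to 1309 in old samples. Of 7 tested T cell genes Cd3e and Cd8a rose and none fell, but 4 were negative, among them Cd3d at -1.51 (limma adjusted p = 0.0799), the list median was -0.18, and with normexp Cd3d and Lck fell. None of the 6 erythroid genes passed, with a median of -0.01. Young replicate 3 had the highest mean deviation of the young arrays in the class II, leukocyte, B cell, monocyte and neutrophil lists, at 1.04, 1.26, 0.96, 1.51 and 1.25, and likewise in the dendritic cell, stroma (1.45), T cell (0.53) and erythroid (0.17) lists. Of 7 tested stroma genes Cxcl12, Col1a1 and Thy1 fell and Lepr rose, with 5 of 7 negative and a list median of -2.38. Col1a1 entered the test only through the young arrays. The summed signals, 20.8 to 32.3 in young and 30.7 to 37.5 in old samples, did not fall with that median and included Lepr, whose mean log2 signal was 3.58 in young and 4.61 in old samples. Of 3 tested endothelial genes Kdr rose. The endothelial gene Emcn was not clearly above background on any array. The part of these cell types in the class II differences was not tested.

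**Figure D5:**
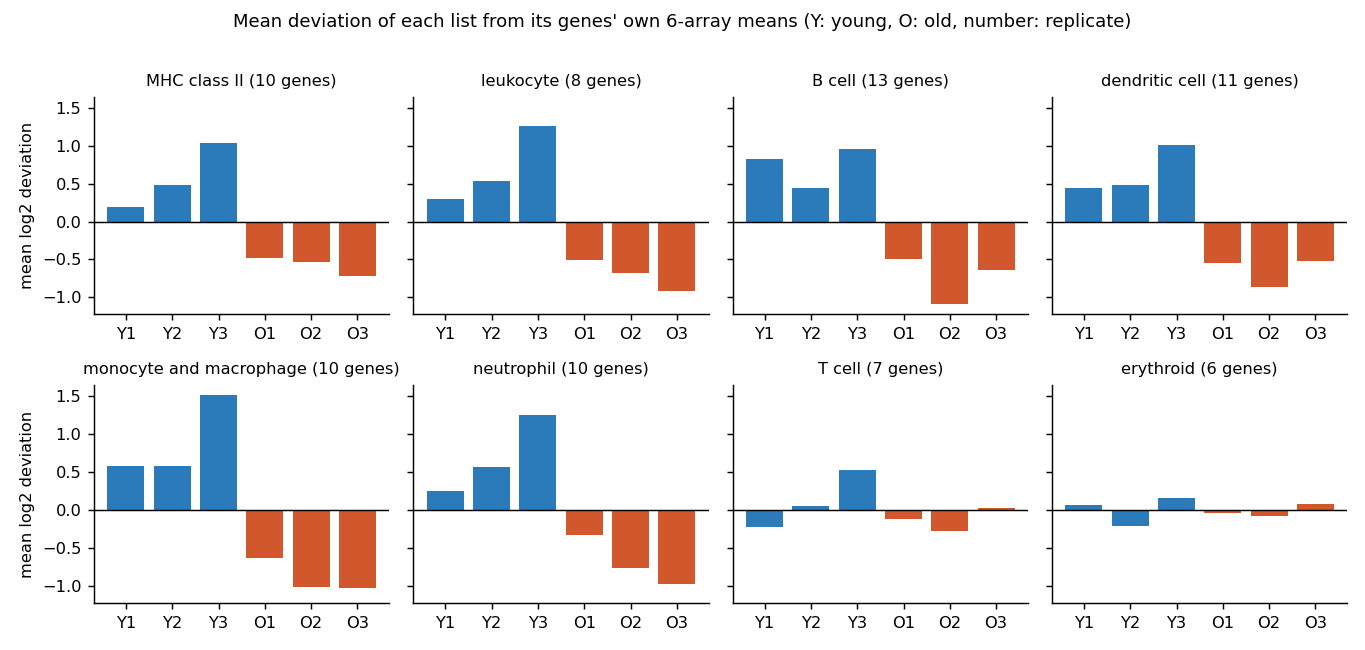
Mean log2 deviation of the tested genes of each list from their own means over the 6 arrays, for young replicates (Y1 to Y3, blue) and old replicates (O1 to O3, orange). The MHC class II bars run from 1.04 in Y3 to -0.71 in O3, and the leukocyte, B cell, dendritic cell, monocyte and neutrophil bars are likewise above 0 in young and below 0 in old samples, whereas the erythroid bars stay within 0.21 of 0. The MHC class II bars include Ciita and H2-DMb2, which were near background on some old arrays. The stroma list, not drawn, ran from 1.45 in Y3 to -1.22 in O2.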

How the data were processed

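The deposited scanner output gives an intensity per spot, written by Agilent Feature Extraction, whose version is 10.7.3.1 per the file headers and 10.5.1.1 per the submitters' processing notes. Per the file headers the processed intensity is background-subtracted and detrended within the array. A second deposited file gives log2 values of 52095 probes, whose columns had medians of 4.87 to 4.95 and correlated with the log2 processed intensity of their own arrays at r = 0.9986 to 0.9995. Its scaling is unknown, and it was used as an alternative. Among its other marks, the files' 0 or 1 codes for well above background and for outliers were used as the authors deposited them.

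Control spots and spots marked as outliers were left out, repeated spots were averaged, and symbols came from a RefSeq table (GRCm38.p6) by unversioned accession, which named 26413 of 55681 probes. For the main values, the log2 of the 75th percentile over non-control spots was subtracted from every log2 processed intensity of an array. The probe with the highest mean stood for a gene, and genes marked well above background on 3 or more of the 6 arrays were tested. The comparison of old with young used limma 3.58.1 (R 4.3.3) and Benjamini-Hochberg adjustment over all 23266 genes. The number of arrays limits the precision. The files hold no mean spot signal, so normexp (offset 50) used the median signals. Simulated data for old against young were drawn gene by gene from the fitted spreads, with 200 of 23246 genes changed. In them 77% of changes of 1 log2 unit and 95.4% of 2 were recovered, and 5.06% of calls were false. These draws held no deviation shared by the genes of an array, so the rates need not hold for these arrays. All arrays came from 1 slide scanned on 1 day.

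Named are all members, those genes of the pathway lists that passed or had the 2 smallest p-values of their list, up to 3 markers per cell type or those never above background, and the 8 genes nearest to the members' mean profile. Further genes (Rfxank, Rfxap, Rfx5, Nfya, Nfyb, Nfyc, Spi1, Ifngr1, H2-Eb2, Cd79a, Zbtb46, Batf3, Csf1r, Cd3d, Lck, Ctsl, Ifi30, Sppl2a, Cd80, H2-K1, B2m, Ms4a1, Siglech, Cd8a and the region's neighbours) were named after their values were seen. The members and lists were chosen with earlier results of these data known. Replicate numbers are shared by the groups, but whether same-numbered samples were handled in pairs is not stated.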

Additional observations from a re-analysis of the deposited data

How the results depend on the processing

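Each member's difference was recomputed under 17 other settings, and 167 of the 170 values stayed negative. The exceptions were Ciita at 0.13 and H2-DMb2 at 0.062 with normexp and H2-DMa at 0.040 without old replicate 1 (-0.18 to 0.040 with an array left out), and none of these 3 genes passed under any setting. The number of members called, 3 in the main setting, was 7 with normexp, 6 with trend and robust settings and 5 when genes had to be well above background on all arrays of a group. It was 2 with quantile normalization, cyclic loess or the deposited values, where H2-Ob no longer passed, and 3 with the percentile taken over averaged probes, a setting added after seeing the data. Leaving out 1 array gave 0 to 2 called members. Over all genes the count of 1953 became 3366 with normexp and 3541 with trend and robust settings, and 0 to 1262 with an array left out. Without the filter on dim probes limma called 0 genes and 0 members (11933 and 7 at an unadjusted p under 0.05). With the replicate number as a block it also called 0 genes and 0 members (5683 and 8 unadjusted). Deviations of same-numbered samples correlated at -0.03, 0.02 and -0.01, and those of other pairs at -0.107 to 0.105. Such values cannot show whether the samples were handled in pairs, which is not stated. The cause of these changes was not tested. Ciita and H2-DMb2 lay near background, and the size of their differences is the least certain.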
